A study of Rattus norvegicus with 16 samples.

Results

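The miR-99/100 and miR-125 families were examined in the hearts of newborn rats, as 8 microRNAs (miRNAs) of the 677 that the array carries. The members were all array entries with the names rno-miR-99a, rno-miR-99b, rno-miR-99b*, rno-miR-100, rno-miR-125a-5p, rno-miR-125a-3p, rno-miR-125b-5p and rno-miR-125b*, given here without the rat prefix, where an asterisk marks the arm of a hairpin that is usually the less abundant. The samples came from HHR (Hypertrophic Heart Rat, whose cardiac enlargement is polygenic) and NHR (Normal Heart Rat, the strain with hearts of normal size that it is set against). Pups were 2 days old and untreated as far as the labels say, and no transgene or allele is named. In all, 8 hearts were HHR and 8 were NHR, and each strain had 4 females and 4 males. Each animal's RNA went to 1 one-colour array without pooling. The labels disagree on whether the tissue was the whole heart or the ventricles without the atria, and heart sizes are not given per animal. Of the 8 members, 6 were detected on all 16 arrays, miR-99b* was detected on 8 arrays and miR-125b* on 6.

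A miRNA is cut from a hairpin transcript, and 1 of the hairpin's arms is usually loaded into Argonaute as the guide, where bases 2 to 8, the seed, pair with target messenger RNAs. miR-99a, miR-99b and miR-100 form a family known for repressing components of the mTOR growth pathway. miR-125a-5p and miR-125b-5p are the vertebrate relatives of lin-4, the miRNA first found in the worm Caenorhabditis elegans, and are known in mammals for roles in blood cell formation and for regulating apoptosis and differentiation. In vertebrates the genes of these families lie beside let-7 genes, the family that times development and restrains proliferation.

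The mature sequences of the guide arms are shown because the comparison by family rests on their seeds, which are in capitals (RefSeq, GRCr8, 5′ to 3′, 7 of the 8 members matched):
miR-99b: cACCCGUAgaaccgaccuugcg
miR-100: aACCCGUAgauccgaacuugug
miR-125a-5p: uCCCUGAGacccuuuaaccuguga
miR-125b-5p: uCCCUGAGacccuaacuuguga
Counted from the 5′ end, miR-99b and miR-100 matched at 18 of 22 bases, and miR-125a-5p and miR-125b-5p at 15 of the 22 positions that both have. Another rat miRNA, miR-351, has the seed of miR-125 and matched miR-125b-5p at 10 of 22 positions.

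The opposite arms are shown with the same marking, since 2 of the 3 members that passed the strain test are among them:
miR-99b*: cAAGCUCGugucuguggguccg
miR-125a-3p: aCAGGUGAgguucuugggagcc
miR-125b*: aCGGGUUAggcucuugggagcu
These 3 arms have 3 different seeds, none equal to that of a guide arm shown above. The seed of miR-99b* is also that of miR-99a*, the opposite arm of the miR-99a hairpin. miR-125b* was read as the 3′ arm of the Mir125b1 hairpin, which RefSeq calls miR-125b-1-3p.

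In the RefSeq annotation of GRCr8 the hairpins lie in 3 clusters, all on the plus strand. Mir99b, Mirlet7e and Mir125a span 696 bases at chr1:67350064-67350759, inside the protein-coding gene Spaca6, with gaps of 95 and 353 bases between the hairpins. Mir99a, Mirlet7c1 and Mir125b2 span 45.3 kb at chr11:29687392-29732659, inside the long noncoding RNA LOC103693508. Mir100, Mirlet7a-2 and Mir125b1 span 51.8 kb at chr8:50798295-50850122, inside Mir100hgl and Lnc215. The miR-125b-5p sequence is annotated at Mir125b2 and is also contained in the Mir125b1 hairpin, so its level can hold RNA from both loci.

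A level is the log2 of the background-subtracted intensity after each array was scaled to the 75th percentile of its detected probes, and it has no meaning between different miRNAs because their probes differ. The arrays detected 200 to 239 miRNAs each, and the 233 miRNAs with detection on at least 4 arrays entered the tests. Before scaling, the arrays differed in brightness. The 75th percentile ranged from 418 to 525 on the 8 HHR arrays, from 443 to 503 on 3 NHR arrays and from 295 to 327 on the other 5 NHR arrays. Strain differences were therefore also computed on the 11 bright arrays alone and as ratios within an array. Heart muscle markers were present as the tissue label implies, with 4 of 5 (miR-1, miR-133a, miR-208b-3p and miR-499) on all 16 arrays and miR-208 on none. The liver marker miR-122 and the neuronal markers miR-124 and miR-9 were detected on no array. Under the reported scaling 2 of 4 tested heart muscle markers, both endothelial markers, both smooth muscle markers and 1 of 2 tested leukocyte markers were lower in HHR, 1 of 3 fibroblast markers was higher, and neither the 2 erythroid markers nor the skeletal muscle marker miR-206 passed, where 45.5% of all tested miRNAs were lower and 9.01% higher. The part of these cells in the results was not tested, and fewer cells of a type cannot be told apart from less RNA per cell.

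Of the 8 members, 3 passed the threshold for lower levels in HHR than in NHR and 0 for higher levels (limma, Benjamini-Hochberg adjusted p under 0.05 over 233 miRNAs), and 4 had an unadjusted p under 0.05, all lower. Among all 233 tested miRNAs, 54.5% passed, 45.5% as lower and 9.01% as higher, so the members' share was not above the background. The lower members were miR-125a-5p, miR-125a-3p and miR-99b*, the last measured near background, and their hairpins are the outer ones of the Mir99b, Mirlet7e and Mir125a cluster. The median strain difference of the 8 members, HHR minus NHR, was -0.092 on the log2 scale, against -0.11 over all 233 tested. Over both slides together no member separated the strains without overlap, which 14.2% of the tested miRNAs did.

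**Figure D1:**
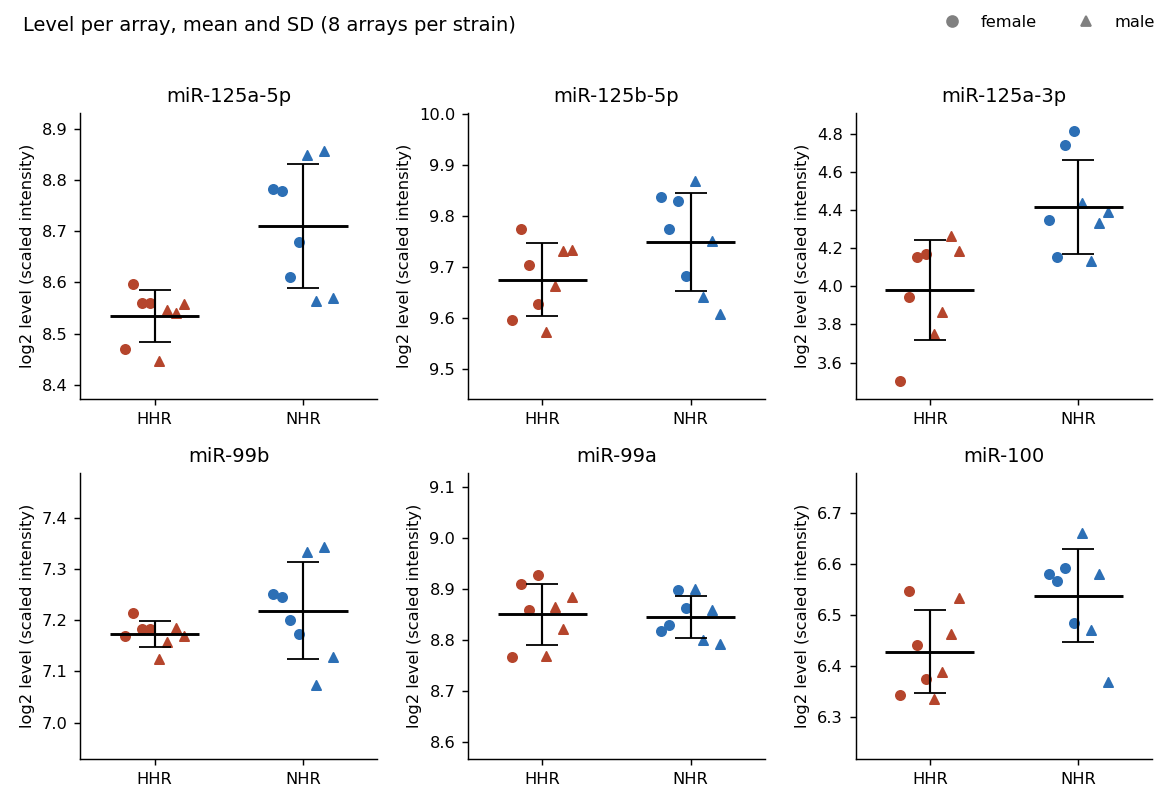
The plot of levels by array shows the 6 members detected on all 16 arrays, with 1 point per animal (circles for females, triangles for males), HHR left of NHR, and the mean and SD over 8 arrays. The vertical axes show log2 levels and do not start at 0, with a wider axis for miR-125a-3p. miR-125a-5p and miR-125a-3p sit lower in HHR, and over both slides together the strains overlap for every member.

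miR-125a-5p, the guide arm of the Mir125a hairpin, had levels of 8.45, 8.55 and 8.60 (lowest, median and highest) on the 8 HHR arrays, against 8.56, 8.73 and 8.86 on the 8 NHR arrays. On this measure 7 HHR arrays lay below every NHR array, 6 NHR arrays lay above every HHR array, and the ranges overlapped only at their edges. The mean was 8.53 ± 0.051 on HHR arrays and 8.71 ± 0.12 on NHR arrays (SD, n = 8 each), a difference of -0.18 ± 0.049 (SE) or 1.13-fold lower in HHR (limma adjusted p = 0.00969), which turned positive when arrays were scaled over all probes, scaled to spike-in controls or not scaled, and in the authors' deposited table. Both probes of this miRNA gave negative differences, between -0.19 and -0.13. The 3 bright NHR arrays held 8.56 to 8.61 and the 5 dim ones 8.68 to 8.86, so the bright NHR arrays overlapped with HHR. On the 11 bright arrays the difference was -0.054 ± 0.038, with a limma adjusted p = 0.352. Within slide 1 it was -0.23 ± 0.077 and within slide 2 -0.12 ± 0.070, with limma adjusted p = 0.0791 and 0.256.

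miR-125b-5p, the guide arm of the other miR-125 hairpins, had levels of 9.57, 9.68 and 9.77 on the HHR arrays, against 9.61, 9.76 and 9.87 on the NHR arrays. The strains overlapped over most of their range, with 2 HHR arrays below all NHR arrays and 4 NHR arrays above all HHR arrays. The difference of -0.074 ± 0.044 (SE) did not pass the threshold (limma adjusted p = 0.165, 95% interval -0.17 to 0.021). The paralogs share a seed, and the test of the difference between them is given with the within-array ratios.

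miR-125a-3p, the opposite arm of the Mir125a hairpin, had levels of 3.50, 4.05 and 4.26 on the HHR arrays, against 4.13, 4.37 and 4.81 on the NHR arrays. Of these, 4 HHR arrays lay below every NHR array and 6 NHR arrays above every HHR array. The mean was 3.98 ± 0.26 on HHR arrays and 4.42 ± 0.25 on NHR arrays (SD, n = 8 each), a difference of -0.44 ± 0.12 (SE) or 1.36-fold lower in HHR (limma adjusted p = 0.0102). All 4 of its probes gave negative differences, from -0.57 to -0.34, but only 1 probe was well above background on all 16 arrays. Unlike miR-125a-5p, its level was alike on bright and dim NHR arrays, with means of 4.42 on both. On the 11 bright arrays the difference was -0.52 ± 0.17 (limma adjusted p = 0.0563). The sign was negative under all 21 settings computed. Several of these, such as other filters, other moderation, balanced blocks and no sex term, cannot change the estimate and are not separate support. Within slide 1 it was -0.50 ± 0.13 and within slide 2 -0.38 ± 0.040 (limma adjusted p = 0.0553 and 0.00230). On slide 1 the 4 HHR arrays held 3.50 to 3.94 and the 4 NHR arrays 4.13 to 4.44. On slide 2 they held 4.15 to 4.26 and 4.33 to 4.81. How many of all tested miRNAs separate the strains within a slide was not counted, so these ranges have no background to set them against. With slide as a block the difference was -0.44 ± 0.078 (limma adjusted p = 0.000618). With the total gene signal and with brightness as a covariate the difference stayed at -0.44 and -0.43, with limma adjusted p = 0.0526 and 0.0587. It was smaller and did not pass with quantile normalization (-0.21 ± 0.11), scaling over all probes (-0.16 ± 0.097), spike-in scaling (-0.18 ± 0.18) and no scaling (-0.10 ± 0.17). The same held in the authors' deposited table (-0.018 ± 0.045), whose baseline is high. The part of that baseline in the smaller difference was not tested.

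miR-99b*, the opposite arm of the Mir99b hairpin, was detected on 4 HHR and 4 NHR arrays. Its level was 0.91, 1.12 and 2.08 in HHR, against 0.91, 1.80 and 2.36 in NHR. Here 0.91 is the floor to which lower values were raised, the median over arrays of each array's dimmest detected miRNA. The difference was -0.55 ± 0.20 (SE) with a limma adjusted p = 0.0356. Detection differed by slide: it was detected on 1 of 8 arrays of slide 1 and 7 of 8 of slide 2, each slide holding 4 HHR and 4 NHR arrays. Within slide 1 the difference was -0.50 ± 0.16 and within slide 2 -0.61 ± 0.21 (limma adjusted p = 0.0752 and 0.0997). Of its 4 probes, 3 were well above background on 0 arrays and 1 on 1 array, so the difference is one between signals near background. The call was lost under 12 of the 18 other settings that could be computed and under 10 of the 16 fits that left out 1 array. The difference was -0.078 ± 0.069 with the total gene signal (limma adjusted p = 0.415), -0.25 ± 0.20 with quantile normalization (0.330), -0.51 ± 0.35 with a floor 4 times lower (0.229) and -0.012 ± 0.022 in the authors' deposited table (0.691). miR-125b*, the opposite arm of Mir125b1, was detected on 3 HHR and 3 NHR arrays and had levels of 0.96, 1.93 and 2.49 in HHR, against 0.91, 2.02 and 2.59 in NHR. Its difference of -0.053 ± 0.28 (limma adjusted p = 0.887) had an interval from -0.67 to 0.56.

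miR-99b, the guide arm of the Mir99b hairpin, had levels of 7.12, 7.18 and 7.21 on the HHR arrays, against 7.07, 7.22 and 7.34 on the NHR arrays. The NHR range enclosed the HHR range, with SDs of 0.026 in HHR and 0.095 in NHR. The difference was -0.046 ± 0.038 (limma adjusted p = 0.310). Within NHR the 3 bright arrays held 7.07 to 7.20 and the 5 dim arrays 7.17 to 7.34.

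miR-99a had levels of 8.77, 8.86 and 8.93 on the HHR arrays, against 8.79, 8.85 and 8.90 on the NHR arrays. The ranges coincided almost fully, and the difference was 0.0055 ± 0.029 (limma adjusted p = 0.887, 95% interval -0.058 to 0.069). Its 3′ arm miR-99a*, which is not a member, was detected on all 16 arrays and differed by -0.18 ± 0.11 (limma adjusted p = 0.182).

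miR-100 had levels of 6.34, 6.41 and 6.55 on the HHR arrays, against 6.37, 6.57 and 6.66 on the NHR arrays. On 5 NHR arrays it lay above every HHR array. The difference of -0.11 ± 0.046 missed the threshold (limma adjusted p = 0.0559) and equalled the median of all tested miRNAs to 2 decimals. It passed the threshold as lower under 5 settings, among them quantile normalization and the fit without a sex term, and as higher when arrays were scaled over all probes. By family, 0 of 3 miR-99/100 guides and 1 of 2 miR-125 guides passed, with median differences of -0.046 and -0.13. These medians were negative under 12 and 16 of the 21 settings computed, several of which repeat the reported estimate by design. Of all tested miRNAs 45.5% were lower, and the difference between the families was not tested.

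**Figure D2:**
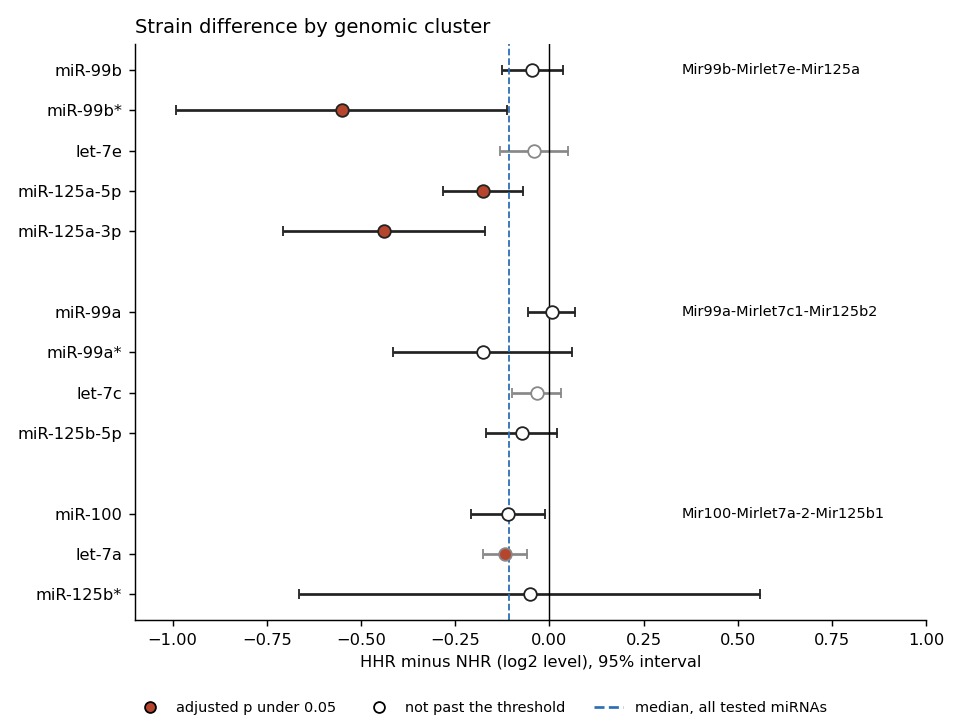
The plot by genomic cluster gives the strain difference (HHR minus NHR, log2 level, with its 95% interval) of the 8 members, of miR-99a* and, in grey, of the let-7 cluster mates; filled points passed the adjusted threshold and the dashed line marks the median of all 233 tested miRNAs. miR-125b-5p is drawn in one cluster although it can come from both Mir125b loci, and let-7a and let-7c are also made from other loci. The filled member points all belong to the Mir99b cluster, where miR-99b and let-7e lie near 0.

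Within the Mir99b, Mirlet7e and Mir125a cluster, 3 of 4 members passed as lower in HHR, miR-99b* among them, against 0 of the 4 members of the other clusters. Of all tested miRNAs 45.5% were lower, and the difference between clusters was not tested. let-7e, transcribed between the member hairpins, did not pass, with -0.041 ± 0.042 (limma adjusted p = 0.408). let-7c, the mate of Mir99a and Mir125b2, differed by -0.034 ± 0.030 (limma adjusted p = 0.340). let-7a, the mate of Mir100 and Mir125b1, passed with -0.12 ± 0.027 (limma adjusted p = 0.00295), a sign that turned under scaling over all probes, spike-in scaling, median centring and no scaling, and in the authors' deposited table. let-7a and let-7c also have loci outside these clusters, and let-7e and let-7c each differ from let-7a at 1 of 22 bases, so cross-hybridisation between them was not tested. Of the other 5 let-7 family miRNAs, let-7d and let-7i passed as lower, and the 5 differences ran from -0.13 to -0.035.

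Ratios of 2 miRNAs on the same array do not change when an array is scaled by a factor, and 12 pairs of members, cluster mates and hairpin arms were tested for a strain difference (two-sided exact permutation test over 12870 splits, Benjamini-Hochberg over 12 pairs). Of the 12, 4 passed. The share of all 17205 pairs that would pass the same test was not computed, so this count has no background to set it against. Pairs that share a miRNA, such as those with miR-125a-5p, are not separate results. The log2 ratio of miR-99b over miR-125a-5p, from hairpins within 1 kb of each other, was -1.39, -1.38 and -1.30 on the 8 HHR arrays, against -1.53, -1.51 and -1.41 on the 8 NHR arrays. Every HHR array lay above every NHR array. The difference was 0.13 ± 0.019 (SE, n = 8 each; exact permutation p = 0.000155, the smallest these splits can give, adjusted p = 0.00186), so miR-99b was higher relative to miR-125a-5p in HHR. Among all 17205 pairs of the 186 miRNAs detected on every array, 14.4% separated the strains without overlap and 61.7% had a difference of at least that size, so neither feature was rare among pairs.

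The same ratio kept its direction within slide 1, at 0.17 ± 0.024, and within slide 2, at 0.093 ± 0.026 (exact permutation p = 0.0286 in each, the smallest p that 4 against 4 arrays allow). On the 11 bright arrays it was 0.086 ± 0.026 (exact permutation p = 0.00606, the smallest that 8 against 3 arrays allow, and adjusted p = 0.0727). The ratio averaged -1.36 on the HHR arrays, -1.45 on the 3 bright NHR arrays and -1.52 on the 5 dim ones, so the bright NHR arrays lay between the others. With each array left out in turn the difference ran from 0.12 to 0.14 and passed in all 16 cases.

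The log2 ratio of miR-125a-5p over let-7e was lower in HHR, at -0.97, -0.92 and -0.82, against -0.91, -0.79 and -0.59 in NHR, a difference of -0.14 ± 0.042 (exact permutation adjusted p = 0.0205). miR-99b over let-7e differed by -0.0043 ± 0.046 (exact permutation adjusted p = 0.931). On the bright arrays the miR-125a-5p over let-7e difference was -0.082 ± 0.044 and did not pass (exact permutation adjusted p = 0.194), nor did it with quantile normalization, at -0.079 ± 0.052 (0.250).

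Within the miR-99/100 family, the log2 ratio of miR-99a over miR-100 was 2.35, 2.42 and 2.55 on the HHR arrays, against 2.24, 2.29 and 2.43 on the NHR arrays, a difference of 0.12 ± 0.034 (exact permutation adjusted p = 0.0205). Within the miR-125 family, miR-125b-5p over miR-125a-5p was 1.07, 1.14 and 1.19 in HHR, against 0.89, 1.03 and 1.22 in NHR, a difference of 0.10 ± 0.035 (exact permutation adjusted p = 0.0345). The ranges overlapped for both ratios. The miR-125 ratio fell outside the threshold in 8 of 16 cases with 1 array left out and was 0.029 ± 0.057 on the bright arrays (exact permutation adjusted p = 0.703). The miR-99a over miR-100 ratio was 0.069 ± 0.044 on the bright arrays (exact permutation adjusted p = 0.291).

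**Figure D3:**
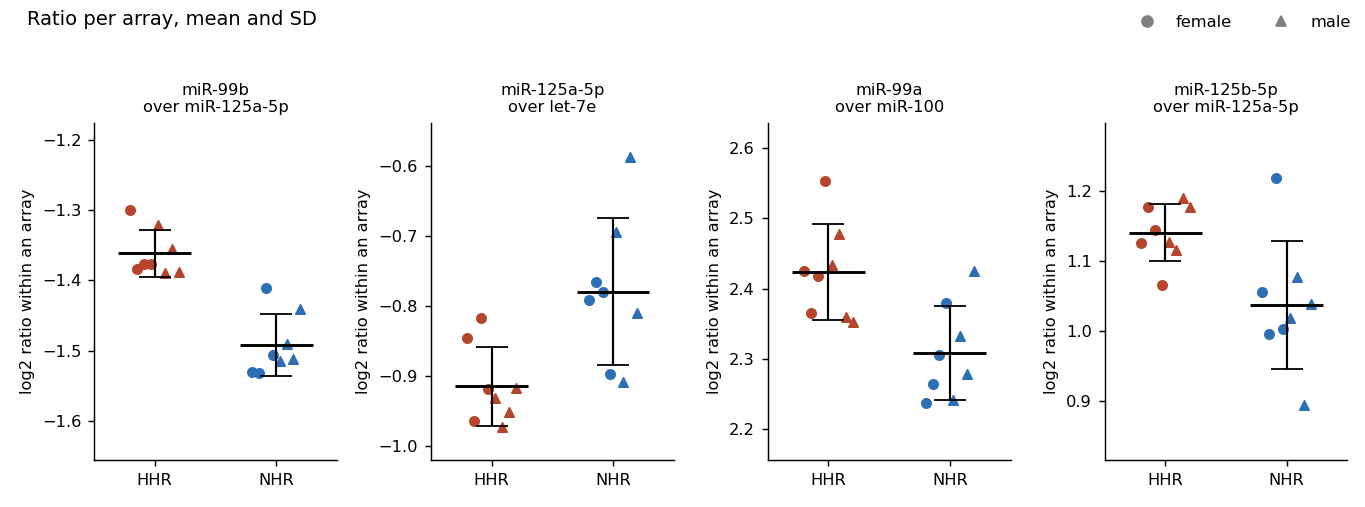
The plot of within-array ratios shows the 4 pairs that passed, as log2 ratios with 1 point per animal (circles for females, triangles for males), HHR left of NHR, and the mean and SD over 8 arrays. The strains do not overlap for miR-99b over miR-125a-5p and overlap for the other pairs.

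The remaining 8 ratios did not pass. miR-125a-5p over miR-125a-3p, the arms of 1 hairpin, differed by 0.26 ± 0.13 (exact permutation adjusted p = 0.104). This arm ratio passed under 3 of 11 alternatives and in 0 of 16 cases with 1 array left out. miR-99a over miR-125b-5p, mates in the long cluster on chromosome 11, differed by 0.080 ± 0.034 (exact permutation adjusted p = 0.0696). miR-100 over miR-125b-5p, mates on chromosome 8, differed by -0.036 ± 0.014 (exact permutation adjusted p = 0.0630). miR-100 over let-7a differed by 0.0074 ± 0.041 and miR-99a over let-7c by 0.040 ± 0.032, with exact permutation adjusted p-values of 0.931 and 0.275. The arm ratios of the Mir99b and Mir125b1 hairpins were not tested because an arm was detected on fewer than 12 arrays.

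**Figure D4:**
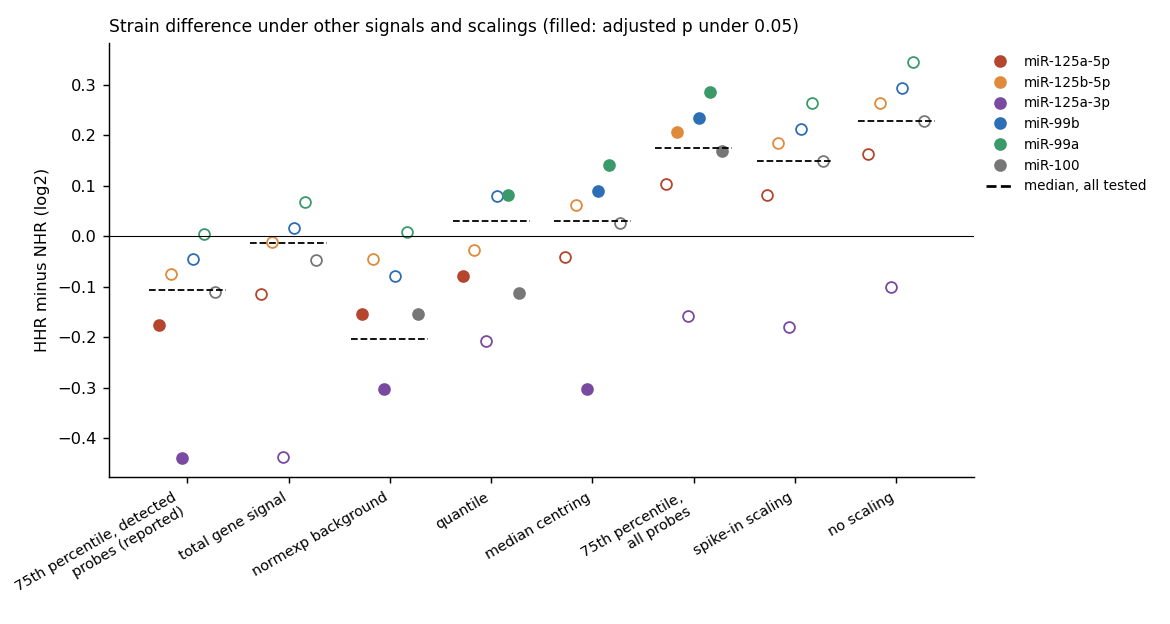
The plot of strain differences under other settings gives HHR minus NHR (log2) for the 6 members detected on all arrays, under the reported scaling and 7 other signals or scalings, with filled points past the adjusted threshold and a dashed line at the median of all 233 tested miRNAs. The median lies below 0 under 3 of these settings and above it under 5, members change sign with several of them, and of the 6, miR-99a is highest and miR-125a-3p lowest under each of these settings.

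The between-array scaling set the sign of most member differences. The median of all tested miRNAs moved from -0.11 under the reported scaling to 0.17 when arrays were scaled over all probes, to 0.15 with spike-in scaling and to 0.23 with no scaling. Relative to that median, miR-125a-3p lay below it under all 21 settings, by 0.084 to 0.46, and miR-99b* under all 19 settings that could be computed for it. Settings that change only the filter, the moderation or a balanced block leave a member's difference as reported, so such tallies count it more than once. miR-125a-5p lay below the median by 0.070 as reported but above it with a normexp background, in the authors' deposited table and on the bright arrays. miR-100 lay near the median, differing from it by -0.0037 as reported and by between -0.14 with quantile normalization and 0.050 with a normexp background. miR-99a lay above the median under all 21 settings. miR-99b did so under 20, the exception being the fit with no filter on dim miRNAs, where the median was 0.

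**Figure D5:**
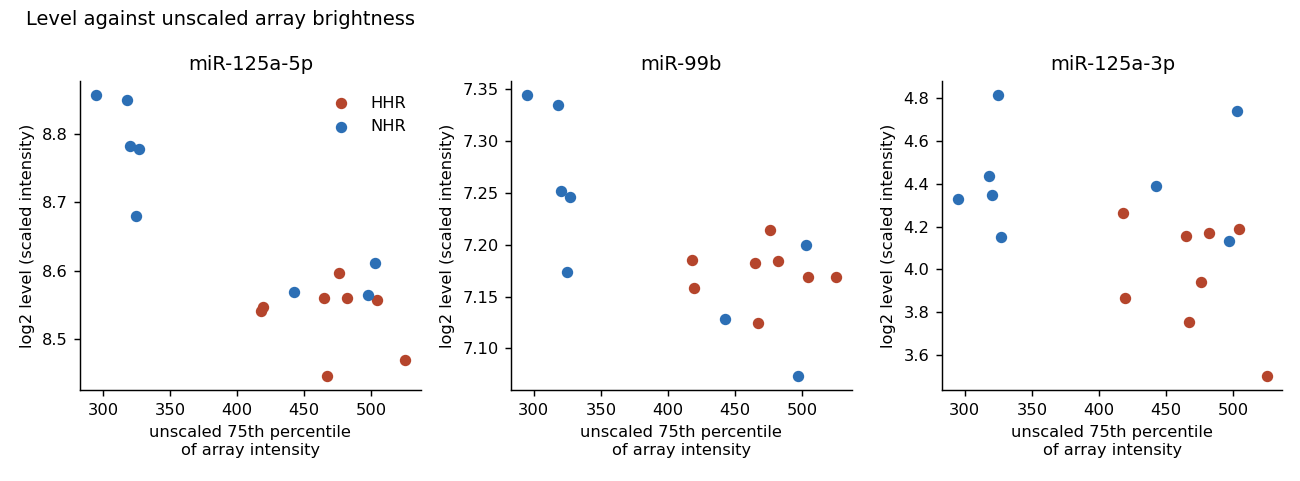
The plot against brightness sets the log2 level of miR-125a-5p, miR-99b and miR-125a-3p on each array against the unscaled 75th percentile of that array's intensity, with HHR and NHR arrays in different colours. The 5 dim NHR arrays hold the highest miR-125a-5p levels, at 8.68 to 8.86, whereas miR-125a-3p is alike on dim and bright NHR arrays.

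By sex, the HHR minus NHR difference of miR-125a-3p was -0.57 ± 0.18 in females (limma adjusted p = 0.0206) and -0.31 ± 0.18 in males (limma adjusted p = 0.241). It was the 1 member past the threshold in females, where 45.1% of the 233 tested miRNAs passed, and 0 members passed in males, where 20.6% did and 1 member had an unadjusted p under 0.05. Its group means were 3.94 ± 0.31 in HHR females and 4.02 ± 0.25 in HHR males, against 4.51 ± 0.32 in NHR females and 4.32 ± 0.13 in NHR males (SD, n = 4 each). The male mean of each strain lay within 1 SD of the female mean. miR-125a-5p differed by -0.17 ± 0.070 in females and -0.19 ± 0.070 in males (limma adjusted p = 0.0636 and 0.0746). No member passed for female against male or for the interaction of strain and sex, nor did any of the 233 miRNAs (0% called; 23 and 9 of 233 had an unadjusted limma p under 0.05, 0 of the 8 members in either).

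Across the 16 arrays, after the group means were taken away, some members varied together. These correlations are descriptions over arrays that share slides and brightness, and the median over all 17205 miRNA pairs was 0.195. miR-100 and miR-125b-5p, the guides of the Mir100 cluster, had a Pearson r of 0.952, and 0.947 with log2 brightness also taken away. miR-99b and miR-125a-5p, the guides of the Mir99b cluster, had an r of 0.926, and 0.823 without brightness. miR-99a and miR-125b-5p, the guides of the Mir99a cluster, had an r of 0.608, and 0.593 without brightness. Some guides of different clusters had higher values than this last pair. These were 0.734 for miR-99b and miR-125b-5p, 0.726 for miR-100 and miR-125a-5p (0.902 without brightness) and 0.717 for miR-125a-5p and miR-125b-5p (0.863). Further such values were 0.711 for miR-99b and miR-100 and 0.641 for miR-99a and miR-100. Lower values were 0.446 for miR-99a and miR-99b and 0.502 for miR-99a and miR-125a-5p (0.487 and 0.676 without brightness). The arms of the Mir125a hairpin had an r of 0.108 (0.178 without brightness). miR-99b and let-7e, neighbours in 1 short cluster, had 0.334, which became -0.125 with brightness taken away.

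Outside the families, the miRNAs most like each member were named by the highest r among 180 others detected on all arrays. For miR-125a-5p and miR-99b the first was miR-223, a miRNA of myeloid cells, with r of 0.955 and 0.903. With brightness taken away these became 0.874 and 0.855. Next came miR-455* (0.919) and miR-365 (0.908) for miR-125a-5p, and miR-365 (0.848) and miR-455* (0.846) for miR-99b. miR-223 was itself lower in HHR by -0.47 ± 0.099 (limma adjusted p = 0.00152), at 4.95 to 5.21 on HHR arrays, 5.19 to 5.33 on the bright NHR arrays and 5.63 to 5.86 on the dim ones. The leukocyte list had 2 of its 3 markers on all 16 arrays and miR-142-5p on none, with a summed linear level of 64.5 to 75.8 in HHR and 68.8 to 101 in NHR, and its part in the miR-125a-5p difference was not tested. For miR-100 and miR-125b-5p the 3 nearest were miR-199a-5p, miR-199a-3p and miR-214, a group abundant in fibroblasts, with r from 0.890 to 0.955. miR-199a-5p was higher in HHR by 0.20 ± 0.072 (limma adjusted p = 0.0335), and the summed level of the 3 fibroblast markers, all on 16 arrays, was 1243 to 1657 in HHR and 1175 to 1449 in NHR. For miR-99a the nearest were miR-26a, miR-181b and miR-497 (r from 0.764 to 0.782), and for miR-125a-3p they were miR-3593-3p, miR-324-3p and miR-202* (r from 0.825 to 0.864).

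Relatives outside the member list showed different directions. miR-351, which carries the miR-125 seed but belongs to another cluster, was at 3.37, 3.56 and 3.66 in HHR, against 3.08, 3.32 and 3.50 in NHR. The difference of 0.22 ± 0.061 (limma adjusted p = 0.0103) passed under 15 of 20 alternatives. It became -0.19 with a normexp background, whose offset is given below. The part of the offset in this change of sign was not tested. miR-10a-5p, a distant relative of miR-99/100 whose seed differs, was lower in HHR by -0.37 ± 0.11 (limma adjusted p = 0.0113), a call that was lost under 10 of 20 alternatives, with values as small as -0.030 ± 0.15 with no scaling and -0.014 ± 0.037 in the authors' deposited table. miR-100*, miR-125b-3p, miR-10b and let-7e* were detected on no array. miR-3588, which RefSeq places on the opposite strand at the coordinates of miR-125b-5p (chr11:29732588-29732609, GRCr8) and which is its exact reverse complement, was detected on 2 HHR and 6 NHR arrays, with levels of 0.91, 0.91 and 3.49 in HHR, against 2.96, 3.57 and 4.44 in NHR.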

How the data were processed

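Total RNA (100 ng per animal, per the labels) was labelled with Cy3 and hybridised to 16 Agilent rat miRNA arrays. The authors deposited spot intensity values read, per the file headers, with Feature Extraction 10.7.3.1 (design build rn4), background-subtracted and not scaled between arrays, and a table of log2 values, used as an alternative; the sources used here do not give its offset and scaling. In that log2 table the median over miRNAs was 6.13 to 6.15 on each array, although 417 of 677 miRNAs were detected on no array. Such a raised baseline can shrink differences of dim miRNAs toward 0. Its part in the small differences of miR-125a-3p, miR-99b* and miR-10a-5p in that table was not tested. The submitters' processing notes name limma. Detection flags are other values that the authors deposited.

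Control and outlier spots were left out, spots averaged per probe, and arrays scaled to the 75th percentile of the 258 probes that were well above background throughout. Probes of a miRNA were averaged, raised to a floor of 1.88, and log2 was taken. limma 3.58.1 in R 4.3.3 fitted 4 group means for all 233 miRNAs detected on at least 4 arrays. Ratios were tested in Python 3.11.15 with numpy 2.4.6. Both tests were checked on simulated data. Each slide held 2 arrays of every group. The members, lists and tests were chosen with earlier results of these data known. Named miRNAs were the 8 members, the let-7 mates, the hairpins' other arms, miRNAs sharing a seed, miR-10a-5p, miR-10b, and the 3 most like each member; miR-3588 was added after its values were seen. Replicates are separate animals. The number of arrays limits the precision.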

Additional observations from a re-analysis of the deposited data

Results flagged for a closer look

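Among the 24 groups of 4 arrays examined (6 members in 4 groups), 1 array lay far from the rest of its group. The level of miR-125a-5p on the array of HHR male 1 was 8.45, against 8.54 to 8.56 on the other 3 arrays of HHR males, and the gap was 0.852 of the group's range, above Dixon's 95% critical value for 4 samples. Chance flags about 1 in 20 such groups. Without this array the HHR minus NHR difference of miR-125a-5p was -0.16 ± 0.052 (limma adjusted p = 0.0214), and that of the miR-99b over miR-125a-5p ratio was 0.13 ± 0.020 (exact permutation adjusted p = 0.00373).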

How the results depend on the processing

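The count of members lower in HHR, 3 in the reported fit, was 0 with the total gene signal, scaling over all probes, no scaling, spike-in scaling, the authors' table, within slide 1 and with brightness as a covariate, 1 with median centring, within slide 2 and on the bright arrays (an alternative chosen after seeing the data), and 5 with a normexp background. The normexp background added an offset of 50 to every spot before scaling. The same offset is a larger share of the signal on the dim arrays, all NHR, and for dim miRNAs. The 5 lower members with normexp were the dim miR-99b*, miR-125a-3p and miR-125b*, and also miR-100 and miR-125a-5p. The part of the offset in these calls was not tested, so the normexp counts cannot be read as strain differences of dim miRNAs. The count of members higher in HHR, 0 as reported, was 1 with quantile normalization, 2 with median centring and 4 with scaling over all probes. In females (1 as reported) it was 4 with scaling over all probes, 2 with median centring and with trend and robust moderation, and 0 with the total gene signal, quantile normalization, no scaling, spike-in scaling, the authors' table, within slide 1, with brightness as a covariate and on the bright arrays. In males (0 as reported) it was 2 with scaling over all probes and 1 with trend and robust moderation. Leaving out each array in turn gave 2 to 4 members lower, 0 to 2 called in females, 0 to 1 in males and 3 to 6 ratios. For sex and interaction the count of members was 0 under every setting run. The number of ratios passing, 4 as reported, was 7 with normexp, 8 in the authors' table, and 0 within slide 1, within slide 2 and on the bright arrays. Over all tested miRNAs, the 127 calls of the reported fit, 83.5% of them lower, became 155 with scaling over all probes, 13.5% lower, 70 with the total gene signal, 51.4% lower, 102 with quantile normalization, 44.1% lower, 87 with median centring, 37.9% lower, 48 with no scaling, 20.8% lower, 29 with spike-in scaling, 34.5% lower, 168 with normexp, 98.8% lower, and 15 in the authors' table, 13.3% lower; counts fell to 37 and 47 within the slides, 74 with brightness as a covariate and 61 on the bright arrays. The replicate block left the same count of 3 lower members. Replicate numbers did not pair the arrays: the 24 same-number correlations ran from -0.217 to 0.526, 16 of them over 0.1, and 4 of 16 arrays correlated best with their own number. With the replicate block 5 ratios passed.

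Signs that turned were these. With scaling over all probes, the difference became 0.23 for miR-99b, 0.17 for miR-100, 0.10 for miR-125a-5p, 0.21 for miR-125b-5p, 0.24 for miR-125b*, 0.10 for miR-99a*, 0.24 for let-7e, 0.25 for let-7c and 0.16 for let-7a. With no scaling they were, in the same order, 0.29, 0.23, 0.16, 0.27, 0.23, 0.16, 0.30, 0.31 and 0.22. With spike-in scaling they were 0.21, 0.15, 0.083, 0.19, 0.18, 0.082, 0.22, 0.23 and 0.14. In the authors' table they were 0.19, 0.11, 0.12, 0.21, 0.015, 0.013, 0.25, 0.27 and 0.20. Median centring gave 0.090 for miR-99b, 0.026 for miR-100, 0.062 for miR-125b-5p, 0.097 for miR-125b*, 0.094 for let-7e, 0.10 for let-7c and 0.018 for let-7a. Quantile normalization gave 0.079 for miR-99b, 0.20 for miR-125b*, 0.049 for miR-99a*, 0.00063 for let-7e and 0.073 for let-7c. The total gene signal gave 0.016 for miR-99b, 0.12 for miR-125b*, 0.021 for let-7e and 0.028 for let-7c. Brightness as a covariate gave 0.029 for miR-99b, 0.019 for let-7e and 0.024 for let-7c, and the bright arrays 0.023, 0.041 and 0.033. Within slide 1 miR-99a was -0.0092, and within slide 2 miR-99a* was 0.061, let-7e 0.0078 and let-7c 0.00038. With normexp, which added the offset of 50, let-7c was 0.00023 and miR-351, a dim miRNA, -0.19. Leaving out each array gave -0.0047 to 0.022 for miR-99a and -0.20 to 0.085 for miR-125b*. Ratios near 0 turned as well. miR-99b over let-7e was 0.031 within slide 1, 0.079 with quantile normalization and 0.0045 on the bright arrays, and -0.023 to 0.020 with 1 array left out. miR-100 over let-7a was -0.020 within slide 1, -0.11 with quantile normalization, -0.091 in the authors' table and -0.076 with normexp, and -0.0093 to 0.024 with 1 array left out. On the bright arrays miR-99a over let-7c was -0.013 and miR-99a over miR-99b -0.019. The causes were not tested. Levels of miR-99b* and miR-125b* lie near background on most arrays, which limits both.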
